A study of Rattus norvegicus with 16 samples.

Results

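The genes described here encode the contractile and structural proteins of the heart muscle cell: the thick and thin filaments, the M-band, the Z-disc, and proteins that sense load or assemble filaments there. They were 39 listed symbols, looked up in the table of each week. Myh6 and Myh7 share 1 locus and were counted once, and the most abundant locus stood for a symbol with several. Of the 39 symbols, 34 had a row. The other 5 (Ttn, Tcap, Ldb3, Nebl and Synpo2l) were not analysed here, so titin itself is not covered. Lmod2, a thin filament nucleator, and Myot, a Z-disc protein, had rows that the authors left untested in every week. Myot was listed at 0 in every group and Lmod2 at no more than 0.0531 FPKM. This leaves 31 genes, all tested in each week, among 14115, 14085, 13627 and 13659 tested loci at weeks 2, 4, 5 and 7.

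The samples were left ventricles of male Sprague Dawley rats on a 0.4% Dyets chow that had 5/6 nephrectomy (5/6Nx, removal of most kidney tissue) or sham surgery at 10 weeks of age. Hearts were taken 2, 4, 5 or 7 weeks later, with a sham group of its own at each time. The 8 groups held 2 libraries each. Tissue of 2 to 3 rats went into every library, so how single animals varied is not seen, and p-values measure the spread between such pools only. Reads per library ranged from 44.5 to 61.8 M (M, mega) in 15 libraries, and pool 2 of the 5/6Nx group at week 7 had 23.6 M. Bases at quality 30 or above made up 93.2 to 94.5% at weeks 2 to 5 and 96.0 to 96.2% at week 7.

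In the sarcomere, myosin heads of the thick filament pull on actin when calcium binding to the troponin complex shifts tropomyosin. The Z-disc anchors the actin filaments of neighbouring sarcomeres, the M-band ties the thick filaments together, and titin spans between them. In rodents the adult ventricle mainly uses alpha-myosin (Myh6), and a shift towards beta-myosin (Myh7) and skeletal actin (Acta1) is a known feature of the loaded heart. Several Z-disc and titin-binding proteins are known to respond to stretch.

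Each gene has 1 abundance per group and week in the deposited tables, in FPKM (fragments per kilobase of transcript and mega fragments), with no value per library. Log2 fold changes are 5/6Nx over sham, ± a standard error derived from the authors' p. A standard error taken from the authors' test statistic was larger for most members. For the Myh6 and Myh7 locus at week 7 it was 0.70 against 0.53, while for Abra at week 4 it was smaller, 0.21 against 0.25. A gene was called where the significance flag in the authors' deposited table was set, at a q-value (p adjusted over all tested loci) of at most 0.05. The members were among the most abundant transcripts of the tissue. Myl2, the ventricular regulatory light chain that defines this chamber, ranked 1, 2, 2 and 1 among all tested loci in sham ventricles at the 4 weeks. Of the 25 most abundant loci in sham, 8 were members in every week. The median sham level of the members was 707, 729, 1056 and 457 FPKM, against 8.21, 8.09, 7.56 and 8.04 FPKM over all tested loci. They ranged from 3.80 FPKM for Ky to 33367 FPKM for Myl2 in sham at week 2.

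Most members lay slightly below sham, and only 3 genes were called, each in a single week and each lower after 5/6Nx. Abra was called at week 4, and Tmod4 and Ky at week 7. No member was called higher in any week. In number below sham, the members counted 26 of 31 at week 2, 31 of 31 at week 4, 22 of 31 at week 5 and 24 of 31 at week 7. The corresponding shares over all tested loci were 54.9, 53.7, 49.6 and 51.0%. The members' median log2 fold changes were -0.15, -0.19, -0.08 and -0.38, against -0.02, -0.02, 0.0022 and -0.01 over all tested loci. Abundant loci as a class also lay lower at weeks 2 and 4. Of the loci with at least 100 FPKM, 69.3, 80.1, 44.2 and 47.2% were below sham at the 4 weeks, against 78.3, 100, 71.4 and 69.6% of the 23, 23, 21 and 23 members at that level. At week 2 the members at that level had a median of -0.15, against -0.07 for all such loci, and at week 4 -0.19, against -0.12. At week 7 the members at that level had a median of -0.24, against 0.03 for all such loci.

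**Figure D1:**
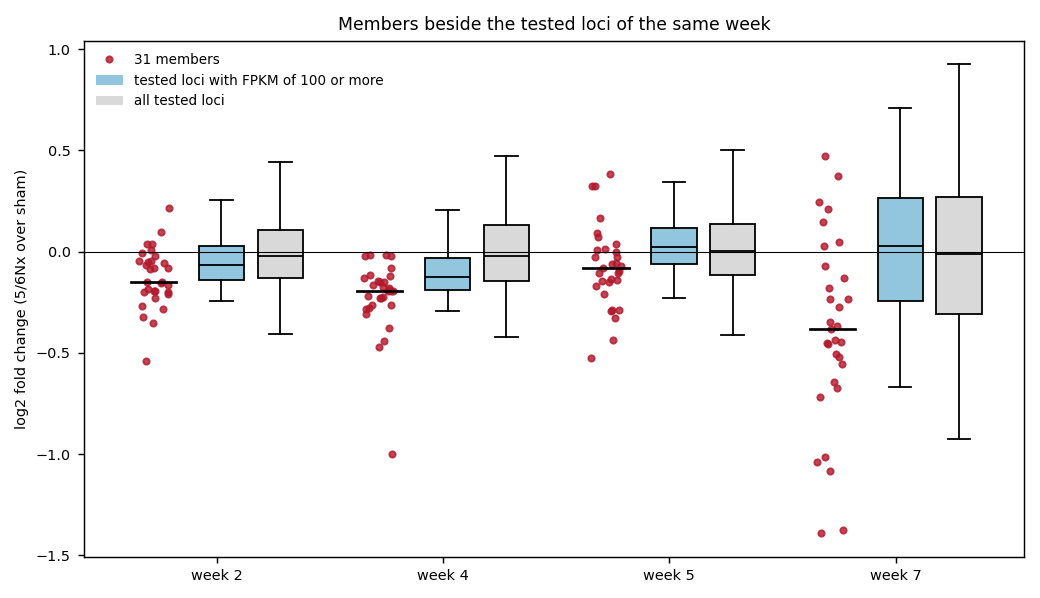
Log2 fold changes (5/6Nx over sham) by week: the 31 members as points with their median as a line, beside boxes (quartiles, whiskers at the 5th and 95th percentiles) for tested loci with at least 100 FPKM and for all tested loci. The members' medians lie at -0.15, -0.19, -0.08 and -0.38, and their spread is widest at week 7.

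In the authors' deposited tables, calls in either direction covered 0% of the tested loci at week 2, 0.334% at week 4, 0.55% at week 5 and 1.75% at week 7. Among the members the counts were 0, 1, 0 and 2 of 31. Calls lower after 5/6Nx made up 0, 0.156, 0.154 and 0.315% of the tested loci. Calls higher after 5/6Nx made up 0, 0.177, 0.396 and 1.43% of the tested loci at the 4 weeks, and no member was among them. At week 2 the authors' deposited Cuffdiff test called no locus in either direction, and 391 loci had an unadjusted p under 0.05. Counted by an unadjusted p under 0.05 and a lower level, the members were 1, 3, 1 and 5 of 31, against 0.928, 2.19, 1.36 and 4.5% of all tested loci. Higher levels with such a p were found in 0 members in any week, against 1.84, 3.28, 3.07 and 6.3% of all tested loci, and either direction together made up 2.77, 5.47, 4.44 and 10.8%. The 5 members at week 7 were Myl3, Tnni3, Myom2, Tmod4 and Ky.

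**Figure D2:**
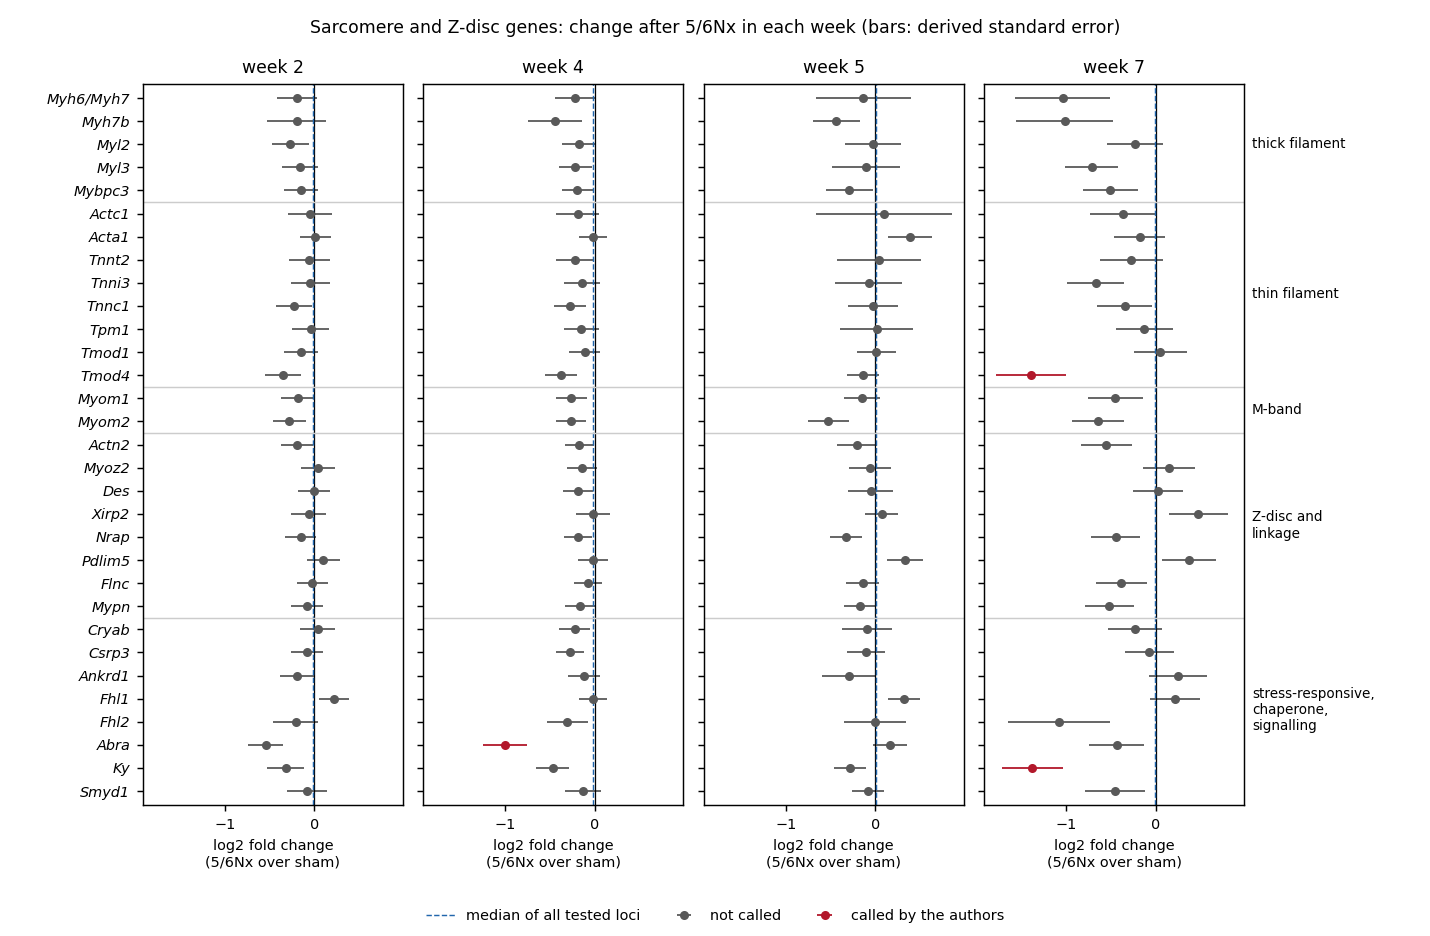
Log2 fold change (5/6Nx over sham, horizontal axis) of the 31 members, grouped by role, at each week; bars are the derived standard errors and red points are called genes. Abra at week 4 (-1.0) and Tmod4 and Ky at week 7 (-1.39 and -1.38) are the called values, and at week 4 every point lies left of 0.

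The week 7 table carries a test statistic whose sign is opposite to the fold change at all 13639 loci where both have one, which was true of 0 loci in the other tables. Directions at week 7 follow the column names, and the deposited fold changes of that table have the same sign at all of these loci. Every week 7 direction given here would turn if the names were exchanged. With the names as deposited, the fold changes of week 7 had rank correlations of 0.22, 0.34 and 0.31 across all loci with those of weeks 2, 4 and 5, which come from other libraries. The 11 tested macrophage markers were above sham in all 4 weeks, week 7 included.

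Abra (chromosome 7, 80816574 to 80820643 in rn5), which encodes an actin-binding protein that promotes SRF-dependent transcription in muscle, fell at week 4. Its levels at weeks 2, 4, 5 and 7 were 32.5, 23.8, 25.5 and 16.7 FPKM in 5/6Nx ventricles, against 47.3, 47.6, 22.8 and 22.6 FPKM in sham ventricles. The 5/6Nx value was below sham at weeks 2, 4 and 7 and above it at week 5. The log2 fold changes were -0.54 ± 0.20, -1.0 ± 0.25, 0.16 ± 0.19 and -0.44 ± 0.31, and the q in the authors' deposited table was 0.0185 at week 4. At week 4 the level was 50.0% of sham. The sham level itself differed between the tables, at 47.3 and 47.6 FPKM in weeks 2 and 4 and at 22.8 and 22.6 FPKM in weeks 5 and 7. Whether the weekly tables share a scaling is not stated. Fold changes were therefore taken only within a week, and differences in level between weeks are only described. At week 4, 5 of 9 adipocyte markers (median -1.36) and 2 of 12 atrial markers (median -0.31) were called lower, and 3 of 13 fibroblast markers higher. Calls in either direction covered 0.334% of all tested loci in that week. The part of these markers in the Abra value was not tested.

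Tmod4 (chromosome 2, 215789244 to 215794215 in rn5), a tropomodulin that caps the pointed end of actin filaments and is best known from skeletal muscle, fell at week 7. At the 4 weeks it had 18.5, 18.8, 28.1 and 5.95 FPKM in 5/6Nx ventricles, against 23.6, 24.4, 31.0 and 15.6 FPKM in sham ventricles. All 4 values after 5/6Nx were below their sham value, by log2 fold changes of -0.35 ± 0.20, -0.37 ± 0.18, -0.14 ± 0.18 and -1.39 ± 0.39. The week 7 level was 38.1% of sham, with a q of 0.0261 in the authors' deposited table. Tmod1, the tropomodulin of the heart, was at 138 FPKM in 5/6Nx and 134 FPKM in sham ventricles at week 7, a log2 fold change of 0.05 ± 0.30, with values between -0.15 and 0.01 in the earlier weeks.

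Ky (chromosome 8, 110380953 to 110420674 in rn5), which encodes a transglutaminase-like protein of the Z-disc whose loss causes kyphoscoliosis and muscle weakness in mice, also fell at week 7. It was the least abundant member, at 3.04, 2.82, 6.14 and 1.42 FPKM in 5/6Nx ventricles, against 3.80, 3.92, 7.49 and 3.70 FPKM in sham ventricles. All 4 values were below sham, with log2 fold changes of -0.32 ± 0.21, -0.47 ± 0.18, -0.29 ± 0.18 and -1.38 ± 0.34. The week 7 level was 38.5% of sham and the q in the authors' deposited table was 0.00564. Of the 3 called genes, none was among the abundant filament genes: their sham ranks in the week of the call were 1929 for Abra, 4606 for Tmod4 and 9533 for Ky.

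**Figure D3:**
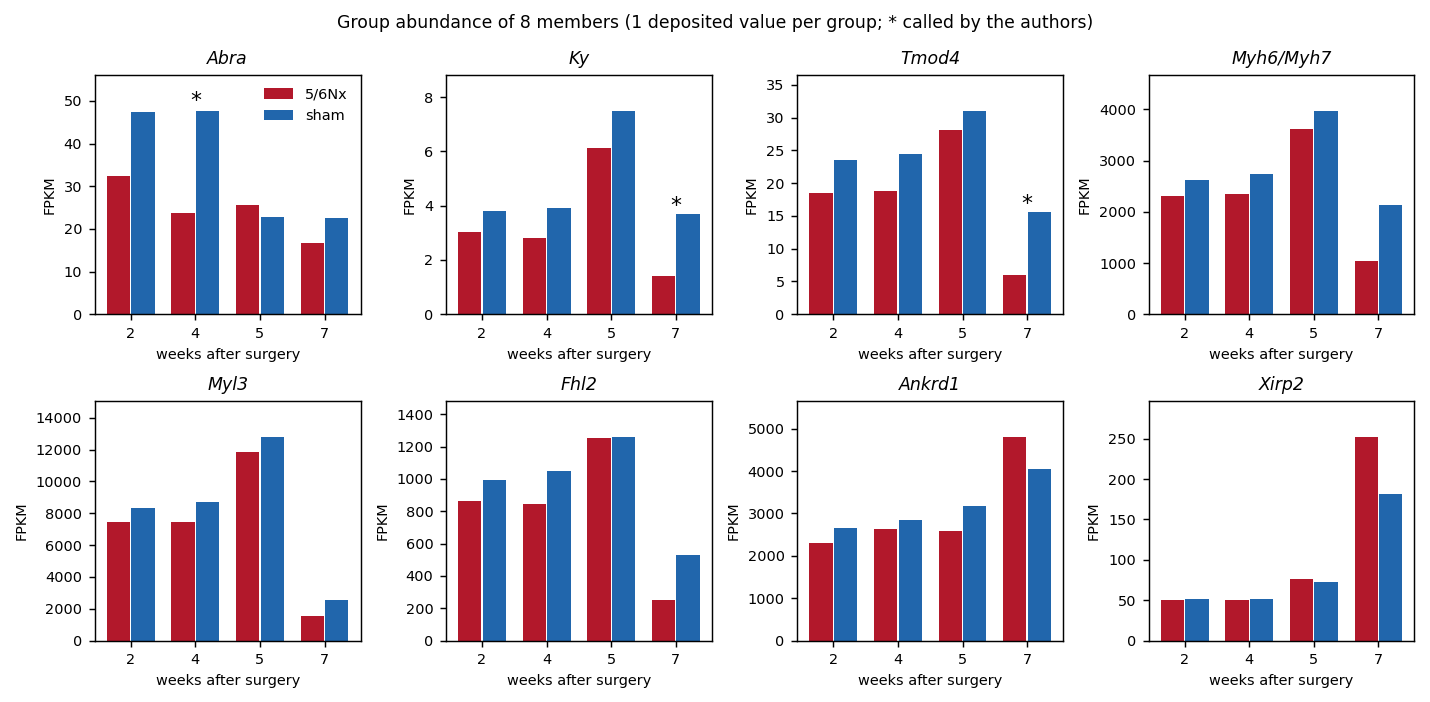
Deposited abundance (FPKM, bars from 0) of 8 members in 5/6Nx and sham ventricles at each week, 1 value per group; a star marks a called gene. Abra at week 4 stood at 23.8 FPKM in 5/6Nx and 47.6 FPKM in sham, and Tmod4 and Ky show their widest gap at week 7; the levels of both groups also differ between the weekly tables.

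Whether the 5/6Nx effect on a gene differed between weeks was tested with a Wald chi-square test of equal log2 fold changes over the 4 comparisons, which share no library, adjusted over 9762 named loci. No member passed, while 24 loci did (0.246%). In this chi-square test Abra had the smallest p of the members, 0.00147 (adjusted p = 0.243). Ky and Tmod4 had chi-square p = 0.0340 and p = 0.0370, neither near the threshold once adjusted. With the standard error taken from the deposited test statistic instead, the chi-square p was 0.241 for Ky and 0.175 for Tmod4, and without week 7 it was 0.746 and 0.606. With a standard error derived from a p that cannot go below 5e-05, a change in 1 week alone cannot give a p below 9.18e-04 in this test, so it could not have passed. In a pair of weeks, a change in 1 of them alone cannot give a p below 5e-05. Failing to pass in a pair thus does not exclude such a change. Over the 6 pairs of weeks, none of the members passed either, and the smallest adjusted p was 0.129, for Abra at week 5 against week 4. That difference was 1.16 ± 0.31 on the log2 scale. For Ky the fold change at week 7 differed from those at weeks 2, 4 and 5 by -1.05 ± 0.40, -0.90 ± 0.38 and -1.09 ± 0.38, and for Tmod4 by -1.04 ± 0.44, -1.02 ± 0.43 and -1.25 ± 0.43, all before adjustment.

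Promoter sequences were read from RefSeq (build GRCr8) for the 250 bases before each gene's start, to show the called genes beside 2 classical sarcomere promoters. Of the 39 symbols, 29 had an entry; Abra was not among them. Each window was searched on both strands for the CArG box (bound by SRF), the MEF2 site, the MCAT motif CATTCC (bound by TEAD factors) and the ERR element TNAAGGTCA, and matches are in capitals.
Tmod4: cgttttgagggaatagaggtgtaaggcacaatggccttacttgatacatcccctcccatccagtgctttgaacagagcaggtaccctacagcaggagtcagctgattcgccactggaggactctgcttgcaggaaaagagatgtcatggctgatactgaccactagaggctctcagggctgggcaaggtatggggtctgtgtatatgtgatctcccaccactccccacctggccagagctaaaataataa
Ky: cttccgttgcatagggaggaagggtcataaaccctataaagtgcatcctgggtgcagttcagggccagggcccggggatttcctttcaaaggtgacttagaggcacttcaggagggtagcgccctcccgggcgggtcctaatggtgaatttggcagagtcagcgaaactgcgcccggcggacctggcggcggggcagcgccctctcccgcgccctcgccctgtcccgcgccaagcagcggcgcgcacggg
Acta1: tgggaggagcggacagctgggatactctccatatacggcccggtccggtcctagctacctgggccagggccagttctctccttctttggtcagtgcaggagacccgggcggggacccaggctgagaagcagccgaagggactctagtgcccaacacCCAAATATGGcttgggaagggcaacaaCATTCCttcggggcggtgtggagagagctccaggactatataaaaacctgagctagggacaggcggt
Myl3: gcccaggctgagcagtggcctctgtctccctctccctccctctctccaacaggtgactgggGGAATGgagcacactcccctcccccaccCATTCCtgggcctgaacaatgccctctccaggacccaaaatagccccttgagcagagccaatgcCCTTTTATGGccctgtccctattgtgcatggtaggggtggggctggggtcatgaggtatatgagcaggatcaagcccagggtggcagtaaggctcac
The Tmod4 window is chr2:185384469-185384718, plus strand, and the Ky window is chr8:111965612-111965861, plus strand. The Acta1 window is chr19:68784195-68784444, minus strand, and the Myl3 window is chr8:119616844-119617093, plus strand. Acta1 holds a CArG box starting at -94 and an MCAT motif at -67 from the gene's start, and Myl3 a CArG box at -97 and MCAT motifs at -189 and -161. The Tmod4 and Ky windows hold none of the 4 motifs, which says only that these letters are not there. Acta1 and Myl3 were picked by name and are among the few members with both a CArG box and an MCAT motif. They do not stand for the members in general. Over the members with an entry, 6 of 29 (20.7%) had a CArG box, against 1.5% of 33469 promoter windows. Members were counted by symbol, over 32 windows, and the background by window, so these shares and those below differ in unit. The members were Acta1, Fhl1, Fhl2, Ldb3, Myl3 and Nebl, of which Ldb3 and Nebl have no expression value here. The MEF2 site was in 6 of 29 (20.7%, against 2.96%), the MCAT motif in 8 of 29 (27.6%, against 12.1%) and the ERR element in 1 of 29 (3.45%, against 1.04%). The tested members with a CArG box did not share a direction at week 7, where Myl3, Fhl2 and Acta1 lay below sham and Fhl1 above it.

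Thick filament genes lay below sham in every week, in all 5 loci, and none was called. Their median log2 fold changes were -0.19, -0.22, -0.14 and -0.72 at weeks 2, 4, 5 and 7. The locus of Myh6 and Myh7 (chromosome 15, 37492064 to 37544303 in rn5), the alpha and beta myosin heavy chains, had 2301, 2352, 3612 and 1034 FPKM in 5/6Nx ventricles, against 2629, 2737, 3968 and 2127 FPKM in sham ventricles. On the log2 scale these values differed by -0.19 ± 0.22, -0.22 ± 0.22, -0.14 ± 0.53 and -1.04 ± 0.53. At week 7 the level was 48.6% of sham, with a 95% interval of the log2 fold change of -2.08 to 0.00045 and a q of 0.463 in the authors' deposited table. Both genes were counted as 1 locus, so a shift from alpha to beta myosin cannot be seen in these values. Myh7b, a related myosin of slow and heart muscle, was far scarcer, at 8.88, 7.35, 17.2 and 4.04 FPKM in 5/6Nx ventricles, against 10.2, 9.98, 23.2 and 8.17 FPKM in sham ventricles. The week by week differences (log2) were -0.20 ± 0.33, -0.44 ± 0.30, -0.44 ± 0.26 and -1.02 ± 0.54.

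Myl2, the regulatory light chain of the ventricle, had 27722, 27112, 45040.0 and 19553 FPKM in 5/6Nx ventricles, against 33367, 30716, 45919 and 23017 FPKM in sham ventricles. Its log2 fold changes were -0.27 ± 0.20, -0.18 ± 0.18, -0.03 ± 0.31 and -0.24 ± 0.31, none beyond 2 standard errors. Myl3, the essential light chain of the ventricle, is given in full after its values were seen and had 7439.6, 7476, 11865 and 1565 FPKM in 5/6Nx ventricles, against 8336, 8718, 12761 and 2572 FPKM in sham ventricles. Its week 7 value, -0.72 ± 0.30 or 60.8% of sham, had an unadjusted p of 0.016 and a q of 0.279 in the authors' deposited table. Mybpc3, the myosin-binding protein that tunes cross-bridge cycling, had 638, 636, 864 and 281 FPKM in 5/6Nx ventricles, against 707, 729, 1056 and 399.7 FPKM in sham ventricles. The log2 fold changes were -0.15 ± 0.19, -0.20 ± 0.17, -0.29 ± 0.26 and -0.51 ± 0.30.

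Of the 8 thin filament genes, 7 lay below sham at week 2, 8 at week 4, 3 at week 5 and 7 at week 7, and Tmod4 was the called one. Their medians were -0.05, -0.17, 0.01 and -0.31. Cardiac actin, Actc1, had 8655, 9313, 19153 and 7491 FPKM in 5/6Nx ventricles, against 8969, 10639, 17941 and 9673 FPKM in sham ventricles. On the log2 scale these values differed by -0.05 ± 0.24, -0.19 ± 0.24, 0.09 ± 0.76 and -0.37 ± 0.36, the week 5 value having the widest error of any member in any week. Skeletal actin, Acta1, had 754, 859, 1827 and 206 FPKM in 5/6Nx ventricles, against 749, 872, 1399 and 234 FPKM in sham ventricles. The week by week differences (log2) were 0.01 ± 0.17, -0.02 ± 0.15, 0.39 ± 0.25 and -0.18 ± 0.28, with the highest value of any member at week 5 and no call. The 2 actin genes are close paralogs, and how reads that fit both were divided is not stated in the labels or tables.

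All 3 troponin genes lay below sham at weeks 2, 4 and 7, and Tnnt2 slightly above it at week 5; none was called. Tnnt2, which ties troponin to tropomyosin, had 10177, 9543, 15474 and 5996 FPKM in 5/6Nx ventricles, against 10590.5, 11169.7, 15064 and 7239.7 FPKM in sham ventricles. Its log2 fold changes were -0.06 ± 0.23, -0.23 ± 0.21, 0.04 ± 0.47 and -0.27 ± 0.35. Tnni3, the inhibitory subunit, had 10842, 10369, 14214 and 3754 FPKM in 5/6Nx ventricles, against 11188, 11457, 14943 and 5982 FPKM in sham ventricles. The log2 fold changes were -0.05 ± 0.22, -0.14 ± 0.20, -0.07 ± 0.37 and -0.67 ± 0.32, the week 7 value having an unadjusted p of 0.0357 and a q of 0.412 in the authors' deposited table. Tnnc1, the calcium-binding subunit, stood at -0.23 ± 0.20, -0.28 ± 0.18, -0.03 ± 0.28 and -0.35 ± 0.30. Tropomyosin, Tpm1, stood at -0.04 ± 0.21, -0.15 ± 0.19, 0.01 ± 0.41 and -0.13 ± 0.32, each value being within 1 standard error of 0. At week 7 the 3 troponin genes thus lay at 82.8% (Tnnt2), 62.7% (Tnni3) and 78.5% (Tnnc1) of sham.

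Both M-band genes lay below sham in every week. Myom2, which crosslinks thick filaments in fast and adult heart muscle, had 378, 390.1, 449.5 and 321 FPKM in 5/6Nx ventricles, against 460.5, 468, 647 and 502 FPKM in sham ventricles. On the log2 scale these values differed by -0.28 ± 0.18, -0.26 ± 0.17, -0.53 ± 0.23 and -0.64 ± 0.29. The values at weeks 5 and 7 had unadjusted p-values of 0.0211 and 0.0274 and q-values of 0.770 and 0.373 in the authors' deposited tables. Myom2 was lowest of all members at week 5. Myom1, the M-band protein of all striated muscle, stood at -0.19 ± 0.19, -0.26 ± 0.17, -0.15 ± 0.20 and -0.45 ± 0.30.

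The 8 genes given the role of Z-disc and linkage divided at week 7, with 4 below and 4 above sham and no call. Ky and Csrp3, also described here as proteins of the Z-disc, were counted in the stress-responsive group. Of these, Ky was called lower at week 7. The medians of the 8 genes were -0.04, -0.16, -0.10 and -0.18. Actn2, the alpha-actinin that crosslinks actin at the Z-disc, had 469.5, 475, 622 and 311 FPKM in 5/6Nx ventricles, against 538, 537, 719 and 457 FPKM in sham ventricles. It lay below sham in all 4 weeks, by -0.20 ± 0.18, -0.17 ± 0.16, -0.21 ± 0.22 and -0.55 ± 0.29. At week 7 Nrap, a scaffold of myofibril assembly and the intercalated disc, stood at -0.45 ± 0.27, Mypn, the titin- and nebulette-binding myopalladin, at -0.52 ± 0.28, and Flnc, the filamin of striated muscle, at -0.38 ± 0.29. Flnc has a second, weaker locus at the same coordinates, which was also not called.

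On the other side at week 7 stood Xirp2 and Pdlim5. Xirp2, an actin-binding protein of the intercalated disc and of sites of filament repair, had 49.6, 50.6, 76.1 and 252 FPKM in 5/6Nx ventricles, against 51.9, 51.3, 72.5 and 181 FPKM in sham ventricles. The week by week differences (log2) were -0.07 ± 0.20, -0.02 ± 0.19, 0.07 ± 0.19 and 0.47 ± 0.33. Pdlim5, a scaffold that binds alpha-actinin and protein kinases, had 547, 509.5, 641 and 1315 FPKM in 5/6Nx ventricles, against 512, 517, 511 and 1015 FPKM in sham ventricles. Its log2 fold changes were 0.10 ± 0.18, -0.02 ± 0.17, 0.33 ± 0.20 and 0.37 ± 0.30. The week 7 values of these genes were the highest of the members, with 95% intervals of -0.18 to 1.12 and -0.22 to 0.96. Myoz2, the calsarcin that tethers calcineurin to the Z-disc, stood at 0.15 ± 0.29 at week 7. Desmin, Des, the intermediate filament that links Z-discs sideways, had 999, 931, 1329.6 and 393 FPKM in 5/6Nx ventricles, against 1003, 1064, 1381 and 386 FPKM in sham ventricles. The log2 fold changes were -0.01 ± 0.18, -0.19 ± 0.17, -0.05 ± 0.25 and 0.03 ± 0.28, so that the 95% interval at week 7 was -0.52 to 0.57.

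Among the 8 stress-responsive, chaperone and signalling genes, Abra and Ky were called and the rest lay on both sides. Ankrd1, the load-responsive ankyrin repeat protein bound to titin, had 2309.9, 2627, 2597 and 4796 FPKM in 5/6Nx ventricles, against 2650.1, 2851, 3180.2 and 4040.2 FPKM in sham ventricles. On the log2 scale these values differed by -0.20 ± 0.19, -0.12 ± 0.18, -0.29 ± 0.30 and 0.25 ± 0.32, below sham at weeks 2, 4 and 5 and above it at week 7. Csrp3, the muscle LIM protein of the Z-disc, had 1124, 1102, 1623 and 852 FPKM in 5/6Nx ventricles, against 1191, 1335, 1746 and 895 FPKM in sham ventricles. The week by week differences (log2) were -0.08 ± 0.17, -0.28 ± 0.16, -0.11 ± 0.21 and -0.07 ± 0.28. Cryab, the small heat shock protein that protects desmin and titin, had 4550.1, 4289, 6746 and 2289 FPKM in 5/6Nx ventricles, against 4432, 5021, 7199.5 and 2693 FPKM in sham ventricles. Its log2 fold changes were 0.04 ± 0.20, -0.23 ± 0.17, -0.09 ± 0.28 and -0.23 ± 0.30.

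The LIM proteins Fhl2 and Fhl1, which bind titin, lay on opposite sides of sham at week 7. Fhl2, the heart isoform, likewise chosen after its values were seen, had 862, 847, 1255 and 251 FPKM in 5/6Nx ventricles, against 996, 1047, 1256 and 532 FPKM in sham ventricles. The log2 fold changes were -0.21 ± 0.25, -0.31 ± 0.23, -0.0017 ± 0.34 and -1.08 ± 0.57, and at week 7 the level was 47.2% of sham with a q of 0.490 in the authors' deposited table. Fhl1, which is known to be raised in hypertrophy, had 202, 187, 172 and 405 FPKM in 5/6Nx ventricles, against 174, 189.6, 137 and 349.5 FPKM in sham ventricles. On the log2 scale these values differed by 0.22 ± 0.17, -0.02 ± 0.15, 0.32 ± 0.18 and 0.21 ± 0.27, and its values were the highest of the members at weeks 2 and 4. The difference between Fhl1 and Fhl2 comes from the same libraries and was not tested. Smyd1, a methyltransferase needed for myosin assembly, stood at -0.08 ± 0.22, -0.13 ± 0.20, -0.08 ± 0.18 and -0.45 ± 0.33.

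Seen over time, 18 of the 31 members (58.1%) lay below sham in all 4 weeks and 0 above it in all 4, against 16.1% of 12120 loci below in all 4. Without week 7 the count was 20 of 31, against 23.0% of loci. The lowest of a member's 4 fold changes was that of week 7 in 20 of 31 members, against 36.2% of loci. These shares of loci were taken over all abundances, while most members were abundant. Of the tested loci with at least 100 FPKM, 69.3, 80.1, 44.2 and 47.2% were below sham at the 4 weeks. How many of those lay below it in all 4 weeks was not counted. Summed over the members, FPKM in 5/6Nx was 90.5, 87.5, 98.3 and 82.8% of the sham sum, with Myl2 as the largest part. The order of fold changes across members was most alike between weeks 2 and 4 (Spearman's rank correlation 0.68 across 31 genes) and least alike between weeks 4 and 5 (0.35). Over all loci the same values were 0.33 and 0.25. The members are not independent, since in each week they share the same 4 pools.

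**Figure D4:**
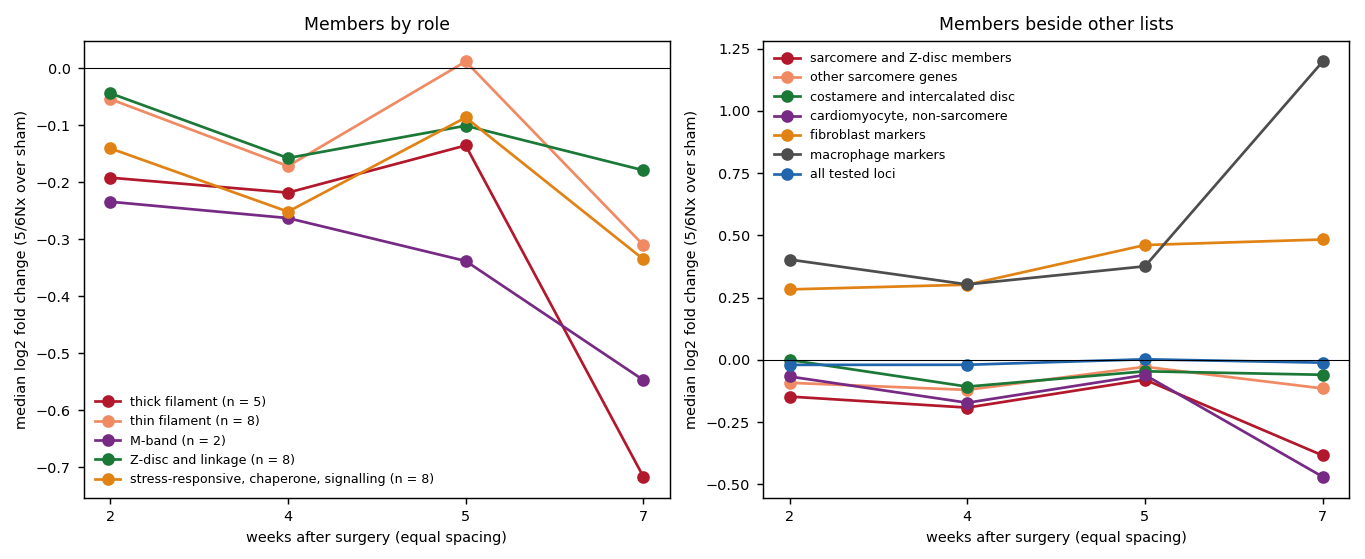
Median log2 fold change (5/6Nx over sham) at each week, for the members by role (left) and for the members beside other lists (right). The thick filament median is -0.72 at week 7 while the Z-disc median is -0.18, and at that week the non-sarcomere cardiomyocyte list lies at -0.47 and the macrophage list at 1.20.

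Genes of the same structures outside the members were read from further lists. Of 56 other sarcomere and sarcomere-regulator genes, 41, 41, 41 and 40 were tested at the 4 weeks, with medians of -0.09, -0.12, -0.03 and -0.12. The 1 called gene was Myl7, the light chain of the atrium, which fell at weeks 4 (-0.83 ± 0.21) and 7 (-1.31 ± 0.32). Of 28 costamere and intercalated disc genes, 23 were tested and 0 called in each week, with 9 at week 4 and 8 at week 7 above sham and medians of -0.00061, -0.11, -0.05 and -0.06. Calls in either direction covered 0, 0.334, 0.55 and 1.75% of all tested loci in these weeks. The unadjusted p was under 0.05 in 0, 2, 0 and 5 of the 23, against 2.77, 5.47, 4.44 and 10.8% of all tested loci. Of the 5 at week 7, 4 were lower and 1 was higher after 5/6Nx.

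Most cardiomyocyte genes outside the sarcomere also lay below sham. In a list of 20 such genes (calcium handling, channels, myoglobin, energy transfer and transcription factors), medians were -0.07, -0.17, -0.06 and -0.47. Below sham were 13, 17, 12 and 17 of the 20 at the 4 weeks. Casq2 was also in the list of other sarcomere genes. Ckm, the muscle creatine kinase, was the 1 called gene. At week 7 it fell to 173 FPKM in 5/6Nx, against 333 FPKM in sham (-0.95 ± 0.28). Their summed level at week 7 was 18165 FPKM in 5/6Nx and 25768 FPKM in sham. In the same libraries the summed level of 11 macrophage markers was 905 FPKM in 5/6Nx and 249 FPKM in sham, with 11 of 11 above sham and 7 called. The sum of 13 fibroblast markers was 3151 FPKM in 5/6Nx and 2011 FPKM in sham, with 10 above sham and 3 called. Of 7 red cell markers 2 were called higher, and of 11 endothelial markers 0 were called, with medians of 0.83 and 0.06. Their part in the members' values was not tested. In these bulk samples fewer heart muscle cells and less RNA per cell cannot be told apart.

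Of 18 skeletal muscle markers, 5, 6, 6 and 4 were tested at the 4 weeks. The most abundant was Eno3, an enolase that heart muscle also uses, and the next was Myl1. Myl1, a fast skeletal light chain, rose at week 7, to 29.5 FPKM in 5/6Nx against 7.75 FPKM in sham (1.93 ± 0.50). Eno3 fell to 57.2 FPKM, against 144 FPKM in sham (-1.33 ± 0.33). Of 12 smooth muscle markers, which include Des, 0 were called in any week, and their sum at week 7 was 704 FPKM in 5/6Nx and 672 FPKM in sham. Des alone gave 393 FPKM of that sum in 5/6Nx and 386 FPKM in sham. At week 7, 8 of the 12 lay below sham, with a median log2 fold change of -0.13. Of 12 atrial markers at week 7, Nppa rose and Myl7 and Bmp10 fell, with a median of -0.87. In this list 1 gene was called higher and 2 lower, against 1.43 and 0.315% of all tested loci. Myl7 and Myl4 were also in the list of other sarcomere genes, so the Myl7 call is the same one.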

How the data were processed

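Tools named in the submitters' processing notes, with no role or order, are Cuffdiff, Cufflinks 2.0.10, TopHat2 2.0.10 and cutadapt; the build named is rn5. Each of the 4 weekly tables the authors deposited lists 1 abundance per group and locus. This deposited value is taken as FPKM, the unit Cuffdiff reports; the headers call it abundance only. Beside it the authors deposited their test's score, p-value and q-value. A further deposited table gives each library's count of reads and its percent of mapped reads and high-quality bases. Replicates are 2 pools per group, and no value per library was in the weekly tables, so no model was fitted and the authors' test stands.

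Log2 fold changes were computed from the deposited abundances. The standard error is the size of the log2 fold change over the normal quantile of the two-sided p; at the smallest p, 5e-05, it is 0.247 times the fold change. It covers the spread between pools as modelled by the authors. At week 7, the 23181 rows were merged to 22909 loci, since some loci stood under several symbols. Weeks were compared with Wald tests with Benjamini-Hochberg adjustment. The code for them was tried on simulated normal data, with standard errors held to a narrower range than in the data. With the derived standard error, recovery of a change in 1 week alone was not required there. Coordinates are rn5 from the tables; promoters are RefSeq GRCr8. Members, lists and roles were chosen with earlier results of these data known. Full values are given for called members, 13 further fixed symbols (Ttn not analysed here) and the 2 highest and 2 lowest per week. Alternatives were other q thresholds, an FPKM minimum of 1, a fold of 1.5, pseudocounts of 1 and 0.1, other loci, centring and other standard errors. Python 3.11.15, pandas 2.3.3 and scipy 1.17.1 were used.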

Additional observations from a re-analysis of the deposited data

How the results depend on the processing

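Of the counts of called members, a q threshold of 0.01 left 0 at week 4 and 1 at week 7 (Ky), against 1 and 2 at 0.05. A threshold of 0.10, adjustment over loci with at least 1 FPKM, a fold of at least 1.5 and use of any locus with the symbol gave the same counts in all 4 weeks. Median log2 fold changes of the members stayed below 0 in all 4 weeks under both pseudocounts, the FPKM minimum and summed loci. Centring on the median of loci with at least 1 FPKM gave -0.13, -0.17, -0.08 and -0.37, against -0.15, -0.19, -0.08 and -0.38. The widest move was at week 7, where summing loci gave -0.44 against -0.38. The number of members whose effect differed between weeks stayed at 0 under all 4 alternatives, including the standard error taken from the test statistic, where the adjusted p of Abra was 0.651 against 0.243, and the test without week 7 (adjusted p of Abra 0.221). Unadjusted, Ky and Tmod4 were under 0.05 in the reported chi-square test (0.0340 and 0.0370) but not with the standard error from the statistic (0.241 and 0.175) nor without week 7 (0.746 and 0.606). Members below sham in every week numbered 18 and, centred on the median of loci with at least 1 FPKM, again 18, an alternative chosen after seeing the data, as was the count of 20 without week 7.

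No paired analysis was possible because the deposited columns hold 1 value per group and carry no replicate number. For the same reason no pool was left out in turn, including the week 7 pool with 23.6 M reads. A gene that was not called is not shown to be unaffected: the median standard error of the members was 0.20, 0.18, 0.23 and 0.30 on the log2 scale at the 4 weeks.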

Other observations

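Sham levels of the members differed between the weekly tables, and a scaling common to them is not stated. Sham at week 2 over sham at week 4 ranged from 0.843 to 1.09 across the 31 members, with a median of 0.968. Sham at week 7 over sham at week 4 ranged from 0.269 for Acta1 and 0.295 for Myl3 to 1.96 for Pdlim5 and 3.53 for Xirp2, with a median of 0.819. Over 11425 loci the central 90% of that ratio ran from 0.304 to 2.12. At week 5 the ratio had a median of 1.33 and ran from 0.479 for Abra to 2.33 for Myh7b. Over the 11425 loci the week 5 ratio had a median of 0.983, with its central 90% from 0.438 to 1.60. The medians over these loci were 1.00 for week 2 and 1.01 for week 7. Week 7 libraries also had the highest share of bases at quality 30 or above, and the part of this in the levels was not tested. The fold changes in the report are within a week and do not use these ratios.

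Of the 40 other sarcomere genes tested at week 7, 4 lay above sham and 3 below it with an unadjusted p under 0.05, against 6.3 and 4.5% of all tested loci. Of these, Myl7 alone was called. Ankrd23, a relative of Ankrd1 that binds titin, had 38.6 FPKM in 5/6Nx and 17.6 FPKM in sham (1.13 ± 0.45). The tropomyosin genes Tpm4 (0.63 ± 0.27) and Tpm3 (0.70 ± 0.28), which are widely expressed outside heart muscle, and Cfl2, a muscle cofilin that severs actin filaments (0.60 ± 0.28), also had an unadjusted p under 0.05. Tpm4 stood at 0.51 ± 0.18 at week 5, with an unadjusted p of 0.00475 and a q of 0.364 in the authors' deposited table. Mybphl, a myosin-binding protein gene of the atrium, stood at -1.11 ± 0.30 at week 4 and -1.22 ± 0.49 at week 7, uncalled in both. Trim54, a ubiquitin ligase of the sarcomere, stood at -0.63 ± 0.30 at week 7, with an unadjusted p of 0.0363 and a q of 0.414 in the authors' deposited table. These genes were named after their values were seen.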
